A study of Arabidopsis thaliana with 4 samples.

Results

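Auxin synthesis genes of Arabidopsis thaliana were followed in whole seedlings of the wild type and of the lux-6 mutant. The 10 genes, chosen by their AGI identifiers, were TAA1, TAR2, YUC1, YUC2, YUC3, YUC4, YUC5, YUC6, YUC8 and YUC9. All 10 were present among the 33602 gene IDs of each table. There were 4 RNA-seq libraries, 2 of the wild type Col-0 and 2 of lux-6, which the labels give as lux -/- in the Col-0 ecotype. Both genotypes were raised on MS medium with 3% sucrose at 22 °C under long days for 10 days and harvested at zeitgeber time 12, that is 12 h after lights on. LUX is a DNA-binding subunit of the evening complex, and the kind of lesion in lux-6 is not given in the labels. Nothing in the labels ties a library to a separate culture beyond the series' description of biological replicates, so p-values measure the spread between these libraries.

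Indole-3-acetic acid, the main natural auxin, is made from tryptophan in a short route. The aminotransferases TAA1 and TAR2 convert tryptophan to indole-3-pyruvate, and flavin monooxygenases of the YUCCA (YUC) family convert that to indole-3-acetic acid. The YUC step is commonly regarded as the limiting one, and the family members act in different organs and at different stages. In seedlings the route supplies auxin for stem and leaf-stalk elongation in shade and warmth, where PIF transcription factors activate TAA1 and several YUC genes. The evening complex represses PIF4 and PIF5, and auxin is also known to delay leaf senescence, the subject of the series.

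Across the 10 genes no transcript passed the test in either direction. Values are FPKM, that is fragments corrected for gene length and for library size, so levels of different genes can be set side by side. The test was limma on log2(FPKM + 1) over all 19592 genes averaging at least 1 FPKM, with p-values adjusted by Benjamini-Hochberg and called at 0.05 or less. Of the 10 genes 8 were tested and 0 were called, against 0.291% called over all tested genes, of which 0.286% were higher and 0.0051% lower. At an unadjusted p under 0.05 there was 1 of the 8, YUC5, against 12.3% of all tested genes. Limma-voom on fragments also called 0. Without Col-0 replicate 2 again 0 of 8 were called, where 3.47% of genes were called higher and 0.357% lower. Without Col-0 replicate 1, which leaves the library that stood apart as the only wild type, 3 of 8 were called higher and 0 lower, where 21.7% of genes were called higher and 12.1% lower. The median log2 fold change, lux-6 against Col-0, was 0.13 over the 8 genes and 0.047 over all tested genes. YUC1 and YUC4 were left untested because their means were under 1 FPKM.

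The libraries differed in ways that bear on every value. The totals behind FPKM, worked back from the values, lay between 10735709 and 11198704 fragments. The lux-6 libraries lay close together, with Pearson's r of 0.984 across genes, and the Col-0 libraries did not, with r of 0.909. Col-0 replicate 2 stood apart, at r of 0.863 with each lux-6 library, and its plastid transcripts made up 3.09% of the FPKM sum against at most 0.0698% in the others. Col-0 replicate 1 lay closer to the lux-6 libraries, at r of 0.955 and 0.957, than to Col-0 replicate 2. Which Col-0 library is nearer to a usual wild type cannot be told from this pair. LUX itself (AT3G46640) was lower in the mutant, 34.8 and 35.3 FPKM against 57.0 and 73.9, a log2 fold change of -0.87 that did not pass in limma (adjusted p = 0.187). Log2 fold changes below are therefore also given without Col-0 replicate 2. Such a fit keeps 1 Col-0 library and assumes that it varies like the lux-6 pair, so its value is not a corrected one.

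TAA1 (AT1G70560), the aminotransferase known for its role in shade-induced growth, had the highest mean level of the set. Here and below, values of a genotype are given for replicate 1 and then replicate 2. In Col-0 it measured 11.1 and 8.36 FPKM, and in lux-6 it measured 8.34 and 8.52 FPKM. Only Col-0 replicate 1 lay above the rest, and the genotypes overlapped. The means were 9.73 ± 1.93 and 8.43 ± 0.129 FPKM (SD, n = 2), from 171, 131, 128 and 128 fragments in that order of libraries. The log2 fold change was -0.17 with a standard error of 0.21 and a 95% interval from -0.72 to 0.37 (limma adjusted p = 0.732). It was -0.36 without Col-0 replicate 2, but 0.011 when Col-0 replicate 1 was left out instead, so its direction rested on the Col-0 libraries.

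TAR2 (AT4G24670), the related aminotransferase that shares this step, lay in the same range of levels. Its values were 6.30 and 9.19 FPKM in wild-type seedlings, with 6.70 and 5.86 in the mutant. Col-0 replicate 2 was the highest, and Col-0 replicate 1 lay between the lux-6 libraries. The log2 fold change was -0.25 with a standard error of 0.25 and a 95% interval from -0.88 to 0.39 (limma adjusted p = 0.678), and -0.0056 without Col-0 replicate 2. TAA1 and TAR2 differed in opposite directions between the Col-0 libraries, with replicate 2 against replicate 1 at -0.37 and 0.48 on the log2(FPKM + 1) scale. Their sum was 17.39 and 17.55 FPKM in the wild type, compared with 15.04 and 14.38 in the mutant. The sums were thus lower in the mutant without overlap, which was not tested, and 22.8% of all tested single genes lay so. TAA1 and TAR2 each overlapped between genotypes, and their opposite differences between the Col-0 libraries offset each other in the sum.

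**Figure D1:**
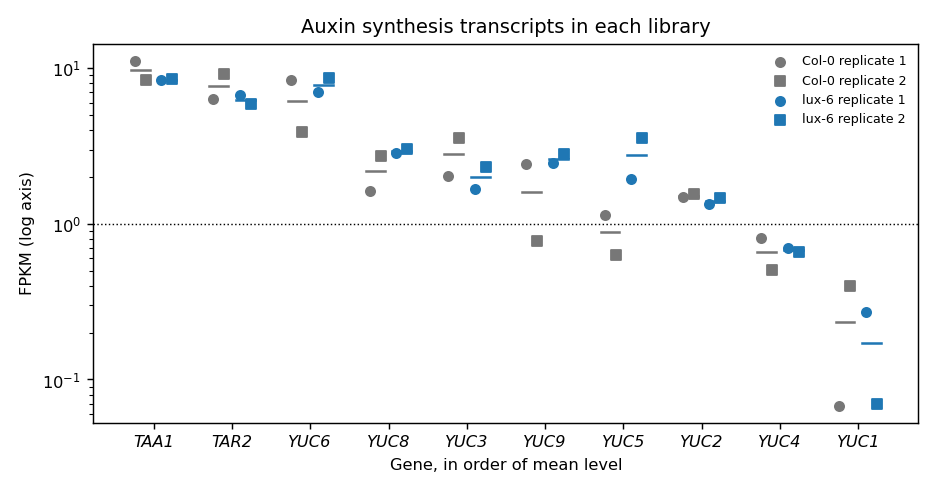
FPKM of the 10 auxin synthesis genes in each library on a log axis, ordered by mean level, with circles for replicate 1, squares for replicate 2, short bars for the genotype means and a dotted line at 1 FPKM. TAA1, TAR2 and YUC6 lie highest, the lux-6 points of YUC5 lie above both Col-0 points, and YUC4 and YUC1 lie under the line.

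YUC6 (AT5G25620), whose overactivity is known to delay leaf senescence, was the most abundant YUC transcript. It stood at 8.40 and 3.89 FPKM in the Col-0 pair, against 7.03 and 8.67 in the lux-6 pair. Col-0 replicate 2 was low, and the other 3 libraries lay together. The log2 fold change was 0.38 with a standard error of 0.36 and a 95% interval from -0.56 to 1.32 (limma adjusted p = 0.669). Without Col-0 replicate 2 it turned to -0.094, and leaving out Col-0 replicate 1 instead gave 0.85.

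YUC5 (AT5G43890) showed the largest difference between genotypes among the 8 tested members. Its level was 1.14 and 0.630 FPKM in wild-type seedlings, with 1.93 and 3.58 in the mutant. The genotypes did not overlap, and the lux-6 libraries differed from each other by 0.64 on the log2(FPKM + 1) scale. The means were 0.885 ± 0.360 and 2.76 ± 1.17 FPKM (SD, n = 2). The log2 fold change was 0.97 with a standard error of 0.35 and a 95% interval from 0.065 to 1.88, which did not pass over all genes (limma unadjusted p = 0.0402, adjusted p = 0.379). Without Col-0 replicate 2 it was 0.78 (limma adjusted p = 0.373). These values rest on 16, 9, 27 and 49 fragments. Per library total, lux-6 had 3.11 times the YUC5 fragments of Col-0, with a 95% interval from 1.96 to 5.10. That interval covers counting error only and not the spread between libraries. It was not alone in excluding equality, since the interval of YUC9 ran from 1.11 to 2.43 and that of YUC3 from 0.522 to 0.963. Those of TAA1, YUC2 and YUC8 spanned equality.

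YUC9 (AT1G04180) and YUC8 (AT4G28720), which are known to respond to jasmonate and wounding, were also higher in the lux-6 pair, without overlap. YUC9 was at 2.44 and 0.776 FPKM in the wild type, compared with 2.45 and 2.80 in the mutant. Col-0 replicate 1 and lux-6 replicate 1 were nearly equal, with 34 fragments each, and Col-0 replicate 2 was low, with 11. YUC8, a direct PIF4 target in warm seedlings, was at 1.63 and 2.72 FPKM in the Col-0 pair, against 2.83 and 3.00 in the lux-6 pair. Here it was Col-0 replicate 1 that was low, with 30 fragments, and the other libraries had 51, 52 and 54. The log2 fold changes were 0.55 for YUC9 and 0.33 for YUC8, with standard errors of 0.39 and 0.28 (limma adjusted p = 0.579 and 0.638). Without Col-0 replicate 2 they were 0.074 and 0.58, and without Col-0 replicate 1 they were 1.03 and 0.074, so each difference rested on a different Col-0 library.

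YUC3 (AT1G04610), placed with YUC5, YUC8 and YUC9 in a subgroup known for expression in roots, lay the other way. It was at 2.04 and 3.55 FPKM in wild-type seedlings, with 1.68 and 2.31 in the mutant. Col-0 replicate 2 was the highest, and the genotypes overlapped. Its log2 fold change of -0.32 had a 95% interval from -1.14 to 0.50 (limma adjusted p = 0.675) and was -0.029 without Col-0 replicate 2.

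YUC2 (AT4G13260), expressed in cotyledons and leaves, was the steadiest of the tested members. It was at 1.48 and 1.55 FPKM in the wild type, compared with 1.34 and 1.47 in the mutant, from 30, 32, 27 and 29 fragments. Both lux-6 libraries lay just below both Col-0 libraries, with a log2 fold change of -0.067 and a 95% interval from -0.74 to 0.61 (limma adjusted p = 0.923), and -0.046 without Col-0 replicate 2.

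YUC4 (AT5G11320) and YUC1 (AT4G32540), which act at the shoot apex and in young flowers and embryos, were near the detection limit. YUC4 was at 0.814 and 0.504 FPKM in the Col-0 pair, against 0.701 and 0.657 in the lux-6 pair, the latter pair inside the range of the former. YUC1 was at 0.0680 and 0.401 FPKM in wild-type seedlings, with 0.273 and 0.0698 in the mutant. Its values came from 1, 6, 4 and 1 fragments, and a ratio of 0.731 between the genotypes had a counting interval from 0.183 to 2.68. No difference in YUC1 was detectable at this depth. Of the family genes outside the set, YUC7 (AT2G33230) had 2, 3, 1 and 1 fragments, and TAR1 (AT1G23320), YUC10 (AT1G48910) and YUC11 (AT1G21430) were listed at 0 in all 4 libraries.

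Thus the lux-6 pair lay wholly above the Col-0 pair for 3 of the 8 tested members, YUC5, YUC8 and YUC9, and wholly below it for 1, YUC2. Over all tested genes the shares were 26.1% above and 22.8% below, so these counts are near the background.

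**Figure D2:**
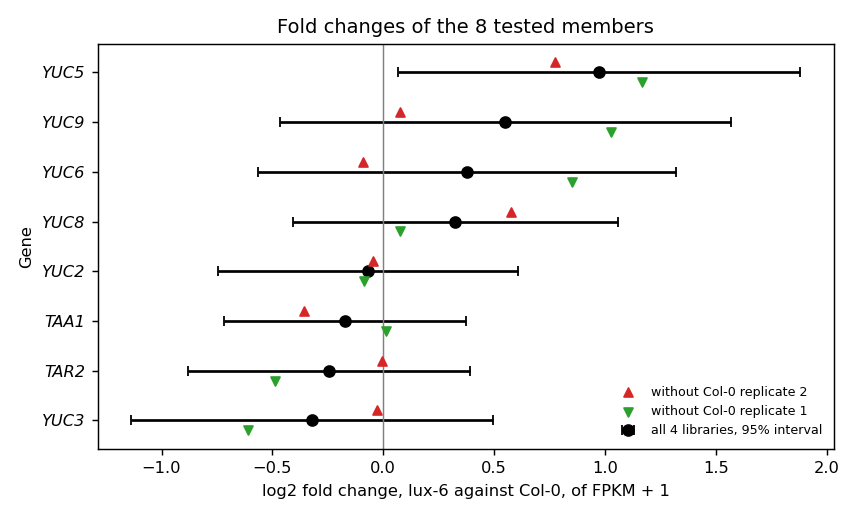
Log2 fold changes, lux-6 against Col-0, of the 8 tested members on the log2(FPKM + 1) scale. Black points with bars are the fit to all 4 libraries with 95% intervals, upward triangles leave out Col-0 replicate 2 and downward triangles leave out Col-0 replicate 1. Only the interval of YUC5 lies above 0, and the triangles of TAA1 and YUC6 fall on both sides of 0.

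The order of mean levels over the 4 libraries was TAA1, TAR2, YUC6, YUC8, YUC3, YUC9, YUC5, YUC2, YUC4 and YUC1, from 9.08 to 0.203 FPKM. TAR2 and YUC6, at 7.010 and 6.998 FPKM, could not be ordered, since TAR2 was higher in 1 library of 4. YUC8, YUC3, YUC9, YUC5 and YUC2 had overlapping ranges from each to the next. The steps from YUC6 to YUC8, from YUC2 to YUC4 and from YUC4 to YUC1 held in all 4 libraries with no overlap in range.

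Summed over the 8 YUC genes, the level was 18.0 and 14.0 FPKM in the wild type, compared with 18.2 and 22.5 in the mutant. The genotypes did not overlap, but Col-0 replicate 1 and lux-6 replicate 1 were nearly equal. This was not tested, and 26.1% of all tested single genes lay higher in the mutant without overlap. YUC6 made up 46.7% and 27.8% of the sum in the Col-0 libraries, and 38.6% and 38.4% in those of lux-6. YUC5 made up 6.33% and 4.50% in the Col-0 libraries, and 10.6% and 15.9% in those of lux-6. YUC3 lay on the other side, with 11.3% and 25.3% in the Col-0 libraries, and 9.21% and 10.2% in those of lux-6. The subgroup of YUC3, YUC5, YUC8 and YUC9 together held 40.2% and 54.7% of the sum in the Col-0 libraries, and 48.8% and 51.8% in those of lux-6, so its share did not separate the genotypes. The ratio of TAA1 plus TAR2 to the YUC sum was 0.966 and 1.25 in the Col-0 libraries, and 0.825 and 0.638 in those of lux-6.

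**Figure D3:**
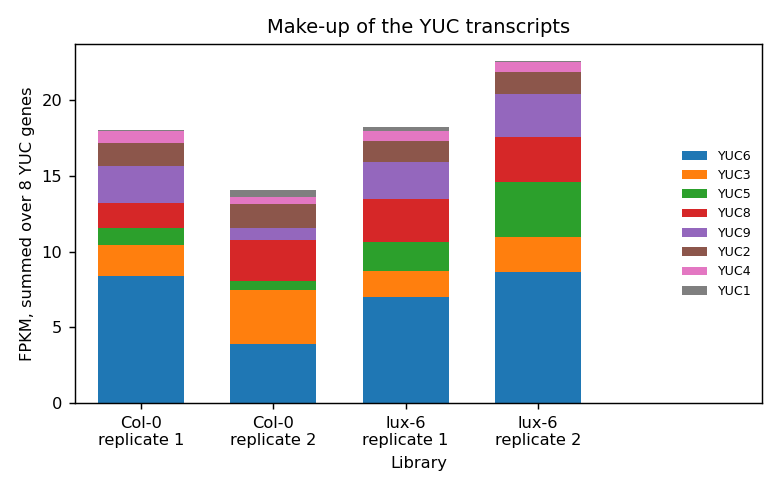
FPKM of 8 YUC genes stacked for each library, with 1 bar per library and 1 colour per gene. The bars reach 18.0 and 14.0 FPKM in the Col-0 pair, against 18.2 and 22.5 in the lux-6 pair, and the YUC6 block is smallest in Col-0 replicate 2.

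YUC5 and YUC9 are close copies, which bears on how fragments could be assigned to them. From the RefSeq coding sequences of assembly TAIR10.1, their proteins of 424 and 421 residues were 83.9% identical, the highest of all YUC pairs. YUC8, with 426 residues, was 74.9% identical to YUC5 and 74.1% to YUC9, while TAA1 and TAR2 were 50.9% identical. The longest identical coding run of YUC5 and YUC9 was 42 bases, and no other member held it. It is shown in capitals with 15 coding bases on each side, on the coding strand, because a fragment inside it could not be told between the genes.
YUC5 (chr5:17648998-17649069, minus strand): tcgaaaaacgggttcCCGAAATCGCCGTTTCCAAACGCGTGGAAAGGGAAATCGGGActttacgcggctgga
YUC9 (chr1:1105776-1105847, plus strand): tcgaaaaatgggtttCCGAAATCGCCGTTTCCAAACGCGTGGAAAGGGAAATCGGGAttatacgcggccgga
Both stretches lie within a coding exon. The longest coding run shared by YUC8 with either was 23 bases. Neither the read length nor the handling of reads that match several places is known from the labels, and their part in the YUC5 and YUC9 values was not tested. The gene length that gave whole fragments equalled the coding length for YUC5, 1275 bases, and for YUC9, 1266 bases. The annotated transcripts are longer, at 1800 and 1649 bases, so FPKM of these genes appears to have been scaled to the coding part.

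The promoters of the 3 genes that lay higher in both lux-6 libraries are printed next, as the 250 bases before the annotated gene start in RefSeq TAIR10.1, 5′ to 3′ on the gene's strand. Capitals mark CACATG, a PIF-binding E-box (the other strand reads CATGTG).
YUC5 (chr5:17650376-17650625, minus strand): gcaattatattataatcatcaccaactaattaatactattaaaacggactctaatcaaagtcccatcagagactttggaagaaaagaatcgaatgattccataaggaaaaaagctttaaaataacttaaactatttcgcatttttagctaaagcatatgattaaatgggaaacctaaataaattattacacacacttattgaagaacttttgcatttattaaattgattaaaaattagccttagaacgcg
YUC8 (chr4:14192319-14192568, plus strand): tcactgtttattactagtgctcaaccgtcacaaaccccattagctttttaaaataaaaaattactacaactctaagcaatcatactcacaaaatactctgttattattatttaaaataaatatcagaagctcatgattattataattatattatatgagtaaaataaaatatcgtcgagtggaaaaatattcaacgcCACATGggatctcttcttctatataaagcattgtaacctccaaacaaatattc
YUC9 (chr1:1104243-1104492, plus strand): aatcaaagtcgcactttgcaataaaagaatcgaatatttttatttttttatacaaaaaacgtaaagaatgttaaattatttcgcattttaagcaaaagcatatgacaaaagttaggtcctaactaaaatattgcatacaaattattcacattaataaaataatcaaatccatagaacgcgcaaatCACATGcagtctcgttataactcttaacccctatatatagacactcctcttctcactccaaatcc
The E-box began 53 bases before the start of YUC8 and 65 bases before that of YUC9. The windows of YUC5 and YUC9 shared a run of 13 bases, aaaagaatcgaat, which began 169 bases before the YUC5 start and 228 bases before the YUC9 start. TAA1 and YUC4 also shared a run of 13 bases, so such a length does not set YUC5 and YUC9 apart. After the annotated start, CACATG stood 14 bases into YUC5 and 6 bases into YUC6. Within the 250-base windows 3 of the 10 members held CACATG or CATGTG, YUC2 being the other, against 11.1% of 27443 nuclear protein-coding genes. The G-box CACGTG, which reads the same on both strands, was in 0 members and in 6.49% of all windows. The LUX-binding motif forms GATACG and GATTCG, on either strand, were in 0 members and in 4.59% and 7.88% of windows. The evening element AAAATATCT, or AGATATTTT, was in YUC2 alone and in 2.36% of windows. These are matches of letters, which do not show binding.

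Steps around the TAA1 and YUC step differed in how far their transcripts lay apart between genotypes. Upstream, 10 tryptophan synthesis genes had a median log2 fold change of 0.0012, or 0.050 without Col-0 replicate 2, and 0 were called. The feedback-regulated entry enzyme gene ASA1 (AT5G05730) was at 16.8 and 14.2 FPKM in wild-type seedlings, with 26.7 and 22.0 in the mutant (log2 fold change 0.62, limma adjusted p = 0.327, and 0.50 without Col-0 replicate 2). Its relative ASA2 (AT2G29690) had a log2 fold change of -0.29 (limma adjusted p = 0.520, and -0.34 without Col-0 replicate 2).

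Other routes to indole-3-acetic acid, with the aminotransferase VAS1 that removes indolepyruvate, had a median of 0.33 over 7 tested genes, or 0.39 without Col-0 replicate 2, and 0 were called. AMI1 (AT1G08980), an amidase that acts on indole-3-acetamide, was at 48.8 and 49.4 FPKM in the wild type, compared with 81.6 and 76.8 in the mutant. Its Col-0 libraries were nearly equal, the genotypes did not overlap, and the log2 fold change was 0.68 (limma adjusted p = 0.197). AMI1 passed when either Col-0 library was left out, at 0.69 without replicate 2 and 0.67 without replicate 1 (limma adjusted p = 0.0437 and 0.00995). CYP79B3 (AT2G22330) makes indole-3-acetaldoxime, a precursor shared with indole glucosinolates, and was at 70.0 and 30.1 FPKM in the Col-0 pair, against 120.4 and 104.9 in the lux-6 pair (log2 fold change 1.27, limma adjusted p = 0.347). Without Col-0 replicate 2 it was 0.67 (limma adjusted p = 0.0637). Its partner CYP79B2 (AT4G39950), named after its values were seen, had a log2 fold change of 1.01, and 0.50 without Col-0 replicate 2.

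Most of the listed Aux/IAA genes lay higher in lux-6, though none passed over all genes, while genes that inactivate auxin lay on both sides. Of 9 tested Aux/IAA genes, which encode repressors that auxin itself induces, 8 lay higher in the lux-6 pair without overlap, against 26.1% of all tested genes, and 0 were called. Their median log2 fold change was 1.10, and 0.74 without Col-0 replicate 2. IAA2 (AT3G23030) was at 63.9 and 38.7 FPKM in wild-type seedlings, with 192.8 and 162.4 in the mutant (log2 fold change 1.81, limma adjusted p = 0.108), and without Col-0 replicate 2 the difference was 1.45. IAA4 (AT5G43700) had a log2 fold change of 0.79 (limma adjusted p = 0.205), and 0.67 without Col-0 replicate 2. Of 9 tested inactivation genes 0 were called, 4 were higher in both lux-6 libraries and 2 lower, against 26.1% and 22.8% of all tested genes. Their median was 0.30, and 0.17 without Col-0 replicate 2. The amino acid conjugation genes DFL1 (AT5G54510) and GH3.5 (AT4G27260) had log2 fold changes of 1.51 and 1.69 (limma adjusted p = 0.0774 and 0.108), and 1.30 and 1.35 without Col-0 replicate 2. On the other side the conjugation gene GH3.2 (AT4G37390) and the methyltransferase gene IAMT1 (AT5G55250), named after their values were seen, were lower in both lux-6 libraries, with log2 fold changes of -0.28 and -0.53 (limma adjusted p = 0.621 and 0.476), and -0.18 and -0.37 without Col-0 replicate 2. The difference between these lists and the synthesis genes was not tested.

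Factors that act on TAA1 or YUC genes had a higher median difference than those genes, a contrast that was not tested. Over 10 tested regulators the median log2 fold change was 0.88, and 0.54 without Col-0 replicate 2, and 0 were called. In both lux-6 libraries 8 were higher and 1 was lower, against 26.1% and 22.8% of all tested genes. RVE1 (AT5G17300), a clock-related MYB factor that promotes YUC8 expression in the daytime, was at 4.84 and 3.45 FPKM in the wild type, compared with 24.04 and 22.03 in the mutant. On the log2(FPKM + 1) scale Col-0 replicate 2 differed from Col-0 replicate 1 by -0.39. The RVE1 log2 fold change of 2.24 stood just short of the threshold (limma adjusted p = 0.0511) and was 2.04 without Col-0 replicate 2. PIF5 (AT3G59060) was at 28.2 and 6.61 FPKM in the Col-0 pair, against 123 and 118 in the lux-6 pair, a log2 fold change of 3.03 (limma adjusted p = 0.174) that was 2.06 without Col-0 replicate 2. PIF4 (AT2G43010) and PIF7 (AT5G61270), named after their values were seen, had log2 fold changes of 2.32 and 0.26 (limma adjusted p = 0.352 and 0.570). The Col-0 libraries had 39.9 and 6.98 FPKM of PIF4, whose log2 fold change without replicate 2 was 1.14, while that of PIF7 was 0.27. TCP4 (AT3G15030), a leaf growth factor known to activate YUC5 and also named after its values were seen, was the regulator lower in both lux-6 libraries. It was at 30.3 and 49.6 FPKM in the wild type, compared with 15.6 and 17.2 in the mutant, a log2 fold change of -1.19 (limma unadjusted p = 0.0077, adjusted p = 0.198) that was -0.85 without Col-0 replicate 2.

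**Figure D4:**
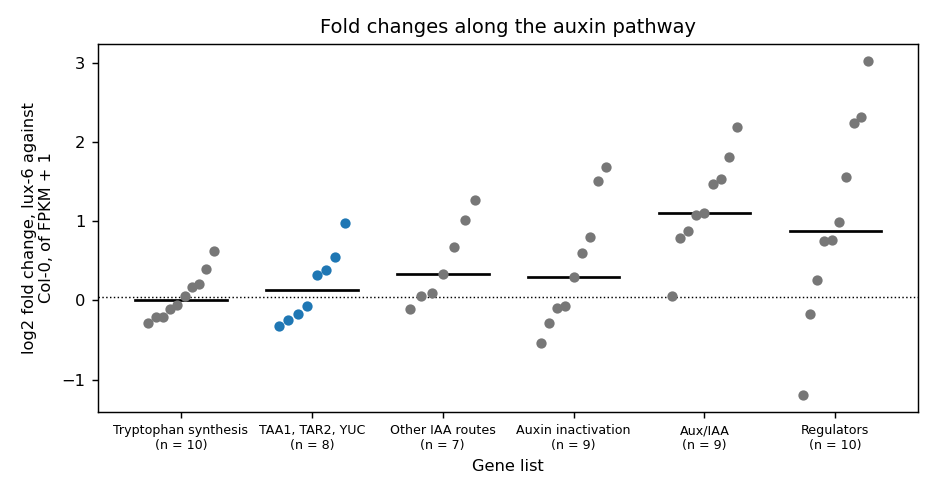
Log2 fold changes, lux-6 against Col-0, on the log2(FPKM + 1) scale for tested genes of 6 lists, with 1 point per gene, a bar at each list's median and a dotted line at the median of all tested genes, 0.047. The TAA1, TAR2 and YUC points, in blue, lie around the dotted line, while the Aux/IAA and regulator medians lie at 1.10 and 0.88.

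Markers of other tissues and of wounding or handling moved with genotype or with Col-0 replicate 2. The 11 seed and embryo markers were all higher in both lux-6 libraries, with sums of 278.9 and 23.98 FPKM in wild-type seedlings and 2164 and 2273 in the mutant, and SESA3, SESA4 and CRU2 were called higher. The 10 wounding and handling markers were also all higher, and LOX4 and CML38 were called higher. The sums of these 10 were 134.4 and 90.7 FPKM in the wild type, compared with 606 and 650.5 in the mutant. Any part of handling in these values was not tested. Over all tested genes 26.1% were higher in both lux-6 libraries and 0.286% were called higher. The 11 root markers summed to 82.3 and 52.7 FPKM in the Col-0 pair, against 63.9 and 74.9 in the lux-6 pair, the lowest value being in Col-0 replicate 2. COBL9, EXPA7, EXPA18 and MYB36 were each lowest there, while PLT1 and WOX5 were highest, at 2.88 and 2.98 FPKM. Among the auxin synthesis genes YUC4, YUC5, YUC6 and YUC9 were lowest in this library, TAR2, YUC1, YUC2 and YUC3 were highest, and TAA1 and YUC8 were neither. WOX5 and PLT1 had log2 fold changes of -0.84 and -0.45, or -0.71 and -0.14 without Col-0 replicate 2, and neither was called. The 10 leaf markers did not move together. Their sum, carried by RBCS genes and CA1, lay between 22738 and 27696 FPKM in 3 libraries and at 43375 FPKM in Col-0 replicate 2, where LHCB2.1, LHCA1 and RCA were at their lowest. In both lux-6 libraries 3 leaf markers were higher and 7 lower, against 26.1% and 22.8% of all tested genes. LHCA1 had a log2 fold change of 1.12 and RBCS2B of -1.36, neither called with all libraries (limma adjusted p = 0.220 and 0.285). Without Col-0 replicate 2 they were 0.99 and -1.12, and without Col-0 replicate 1 they were 1.26 and -1.61. No marker was at 0 in all libraries. The part of these differences in the YUC5, YUC6, YUC8 and YUC9 values was not tested. In whole seedlings fewer cells of a type and less RNA per cell cannot be told apart.

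Genes with the most similar profile over the 4 libraries were found by the Euclidean distance of log2(FPKM + 1) values centred on each gene's mean, among 15379 other genes averaging at least 5 FPKM. For TAA1 they were AT3G61960, IMD1 (AT5G14200) and AT1G77930, at distances of 0.0225, 0.0328 and 0.0339. For TAR2 they were AT1G04480, AT5G48590 and GPX1 (AT2G25080), at 0.0236, 0.0296 and 0.0307. For YUC6 they were AT5G35930, AT5G27890 and SSP4 (AT5G46410), at 0.0227, 0.0266 and 0.0426. With 4 libraries such profiles are common. Within a distance of 0.2 there were 765 genes for TAA1, 644 for TAR2 and 215 for YUC6.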

How the data were processed

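Per the labels' protocols, RNA of whole seedlings was purified with TRIzol and libraries came from an NEBNext Ultra kit. Per the submitters' processing notes, TopHat2 2.0.12 and TAIR10 were involved, with no role stated. Each deposited file holds FPKM of 1 library, per the file headers. The authors' counter, gene lengths and strand handling are not stated. The test on log2(FPKM + 1) was limma 3.58.1 (R 4.3.3) with trend and genotype alone as a term, two-sided, with 2 residual and 2.88 prior degrees of freedom. An exact permutation test of 2 against 2 libraries cannot give a two-sided p under 0.333. Fold changes on this scale understate changes of low genes.

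Fragments were worked back by a search for library totals and for gene lengths between 0.5 and 1.2 times the annotated one that give whole numbers within 0.002. This held for 82.9% of genes above 0 and for 7 of the 10 members. For TAR2, YUC4 and YUC6 fragments are estimates from the annotated length, used here in limma-voom and to judge the depth of YUC4. The search and the model were tested on simulated data. For the model all libraries were given a single spread, set for the lux-6 pair, and changed genes averaged at least 5 FPKM before the change. That check does not show what could be detected among members with lower means or with the spread of the Col-0 pair. Intervals on fragments are 95% exact binomial ones.

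Names, coding sequences, proteins and promoters came from RefSeq TAIR10.1 (entries for 97.7% of IDs), and coordinates are those of that assembly. The deposited tables hold no coordinates. Protein identity was computed with Biopython 1.88 over aligned residues. The members and lists were chosen with earlier results of these data known. Named genes are the members, TAR1, YUC7, YUC10 and YUC11, and of each list those past the test or else the 2 with the smallest p, with the 3 nearest profiles of TAA1, TAR2 and the highest YUC gene. Alternatives were the pseudocount, filters, scaling, a replicate block, limma-voom, organelle genes left out and each library left out.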

Additional observations from a re-analysis of the deposited data

How the results depend on the processing

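Of 83 alternative values for the 8 tested members, 78 kept their direction and side of the threshold. Changed filters and the replicate block leave each member's fold change as it was, so direction could not change there. The exceptions all came from leaving out a Col-0 library. Without Col-0 replicate 1, YUC5, YUC6 and YUC9 passed in limma (log2 fold changes 1.17, 0.85 and 1.03, adjusted p = 0.0483, 0.0310 and 0.0320), where 21.7% of all genes were called higher and 12.1% lower. That fit compares Col-0 replicate 2 alone with lux-6. TAA1 turned to 0.011 there, and YUC6 to -0.094 without Col-0 replicate 2, where no member passed and 3.47% of genes were called higher and 0.357% lower. Over the fits that leave out a library, YUC5 ranged from 0.65 to 1.29, YUC6 from -0.094 to 0.85, YUC9 from 0.074 to 1.03 and TAA1 from -0.36 to 0.011. Members called higher ranged from 0 to 3 in these fits. The members' median was -0.022 over 10 genes without the filter and -0.17 over the 3 genes averaging at least 5 FPKM, where YUC2, YUC3, YUC5, YUC8 and YUC9 were not fitted.

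Counts over all genes, 56 higher and 1 lower, moved with most settings. They were 0 and 0 with a pseudocount of 0.1 and with no filter, 97 and 3 for genes averaging at least 5 FPKM, 128 and 4 without organelle genes, and 87 and 3 with limma-voom. Median-of-ratios scaling gave 95 higher. Over the fits that leave out a library they ranged from 0 to 4244 higher and from 0 to 2374 lower. The cause of these shifts was not tested. With the replicate block they were 332 and 8, no member was called, and YUC5 had adjusted p = 0.408. The labels do not say whether same-numbered libraries of the genotypes were handled together. Deviations of same-numbered libraries correlated across genes at r = -0.0255. Each genotype gives a single such deviation, so this value cannot decide it. RVE1 passed with the 5 FPKM filter, median-of-ratios scaling, the replicate block, limma-voom and organelle genes left out (limma adjusted p from 0.0186 to 0.0441). It missed the threshold with a pseudocount of 0.1 and with no filter (limma adjusted p = 0.0683 and 0.109). RVE1, AMI1, LHCA1, RBCS2B, DFL1, GH3.5, IAA2, PIF4, PIF5 and TCP4 passed when either Col-0 library was left out. They missed the threshold when either lux-6 library was left out. A fit without a Col-0 library assumes that the remaining Col-0 library varies like the lux-6 pair. DFL1, GH3.5, IAA2 and PIF5 also passed with the replicate block. The called markers SESA3, SESA4, CRU2, LOX4 and CML38 passed when either Col-0 library was left out and missed the threshold when either lux-6 library was left out, where 0 genes were called. Depth limits YUC1, YUC4 and YUC7, which have fewer than 20 fragments a library, for YUC4 by estimate. It also limits YUC5, with 16 and 9 fragments in the Col-0 libraries, and YUC9, with 11 in Col-0 replicate 2.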
